A study of Mus musculus with 6 samples.

Results

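The clustered protocadherin genes form the alpha, beta and gamma clusters on mouse chromosome 18. Members were chosen by gene symbol, taking every gene whose name begins with Pcdha, Pcdhb or Pcdhg. Of 34245 genes measured, 56 were members, with 13 in the alpha, 22 in the beta and 21 in the gamma cluster, and all 56 are annotated as protein-coding. They lie on chromosome 18 of mm10 between 36930184 and 37841873. RNA was sequenced from 3 independent peripheral T-cell lymphomas (PTCL), taken from lymph nodes of FVB mice (FVB/N in the study's methods) with the genotype Dnmt3b+/-. These mice carry a conventional knockout allele of Dnmt3b in every tissue, so the deletion is not limited to T cells, and the labels name no age or treatment. Each tumor is 1 library of bulk tissue and the 3 tumors form 1 group, numbered 1 to 3. The control libraries of the study and the 3 samples sequenced for DNA methylation were not analysed here, so values are described per tumor and no test between groups was made.

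Clustered protocadherins are cell-surface adhesion proteins best known from neurons, where each cell uses its own combination of isoforms to tell itself from its neighbors. Every alpha and gamma gene contributes a long variable first exon with its own promoter, which is spliced to constant exons at the end of the cluster, whereas the beta genes have no such shared exons. Promoter choice depends on DNA methylation, in which Dnmt3b takes part, and on loops that CTCF and cohesin form between promoters and distant enhancers, while Smchd1 and Setdb1 are known repressors of the clusters.

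Expression is given as FPKM, the reads on a gene for each kilobase of its exons and each 1000000 reads of the library. The depth the values were scaled to was 30726570, 18969988 and 20770928 reads for tumors 1, 2 and 3. A gene without a read does not hold a 0 in these values but the FPKM of 0.9 read, here called the fill-in value, and the number of reads on a gene was recovered from its FPKM and exon length. Intervals in brackets are exact Poisson 95% intervals of the reads and cover counting error only. Tumors were compared by these intervals. For limits and folds, a count of 0 was taken to allow up to 3 reads, which is 0.0976, 0.158 and 0.144 RPM (reads in 1000000 reads of the library) in tumors 1, 2 and 3. This limit lies a little below the upper end of the interval of 0 reads.

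The T-cell label was checked with 7 T-cell markers, all of which were above 0.2 FPKM in every tumor. Cd8b1, a chain of the CD8 coreceptor, was the most abundant with 434.7, 166.0 and 443.4 FPKM in tumors 1, 2 and 3, followed by Cd8a with 258.5, 121.8 and 218.1 FPKM. Cd3d, a subunit of the T-cell receptor complex, had 110.3, 134.7 and 183.0 FPKM. The lowest marker was Cd5, a receptor of mature T cells, with 34.5, 53.7 and 32.9 FPKM. All 3 tumors thus carried the defining transcripts of CD8 T cells, with the lowest summed level of the list in tumor 2, at 1108, 761 and 1139 FPKM.

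The gamma cluster stood apart from the other clusters in level. All 21 gamma genes had at least 1 read in every tumor, while no alpha or beta gene did, which makes 21 of 56 members against 44.1% of the 31460 genes with whole reads in all tumors. The same 21 gamma genes were above 0.2 FPKM in every tumor, against 36.7% of all genes. These 21 are not independent detections, since they share reads as described further on. No read was found in any tumor for 6 of the 56 members, all of them beta genes (Pcdhb1, Pcdhb2, Pcdhb4, Pcdhb6, Pcdhb8 and Pcdhb12), against 42.8% of genes. The median over members of the mean FPKM was 0.0154, against 0.0976 over all 34245 genes. By cluster this median was 0.00782 FPKM for alpha, 0.0133 for beta and 1.62 for gamma. Of the values behind these medians, 26 of 39 in alpha and 43 of 66 in beta are fill-in values, so the medians of alpha and beta reflect mostly depth and exon length and show no difference between these clusters.

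**Figure D1:**
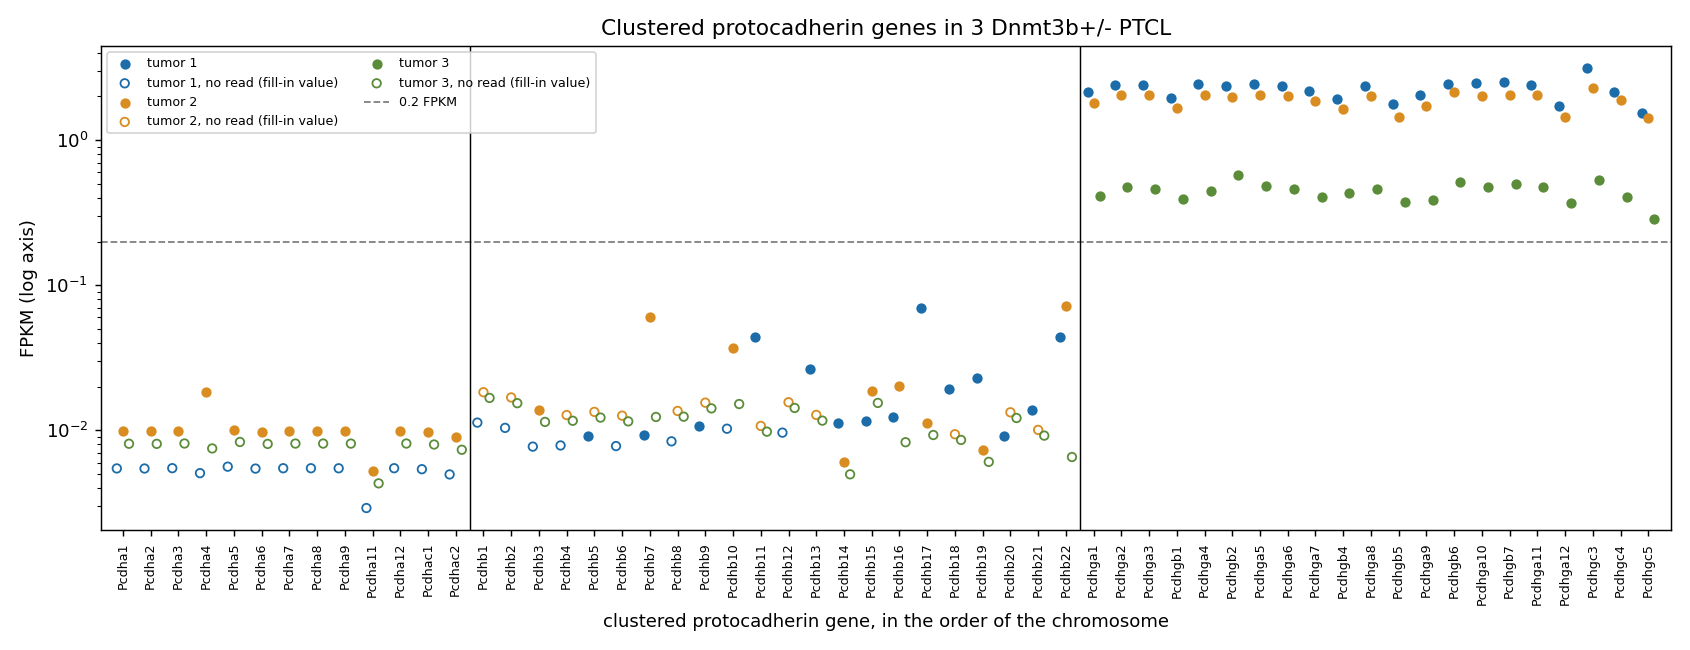
FPKM of each of the 56 clustered protocadherin genes (log axis) in tumors 1, 2 and 3, in chromosomal order, with open circles for genes without a read at their fill-in value and a dashed line at 0.2 FPKM. All gamma genes lie above the line in every tumor, with tumor 3 lowest, and all alpha and beta genes lie under it.

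The alpha cluster covers 257.5 kb and its genes share 2860 bases of constant exons. In tumors 1 and 3 none of its 13 genes had a read. Among all genes whose reads were recovered, 45.9% had none in tumor 1 and 52.3% had none in tumor 3. In tumor 2 every alpha gene had exactly 1 read, except Pcdha4 with 2. A single read on the constant exons is counted for every alpha gene, so these counts can be given by 1 shared read and 1 further read on Pcdha4, and the 14 reads that the genes sum to cannot be taken as 14 fragments. A level of 1 read in tumor 2 is 0.0527 RPM [0.00133 to 0.294]. Alpha expression was not detectable above the limit of a count of 0 in any tumor.

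The 5 alpha genes with the highest mean FPKM were Pcdha4, Pcdha5, Pcdha3, Pcdha12 and Pcdha7. Pcdha4 had 0.00508, 0.0183 and 0.00751 FPKM in tumors 1, 2 and 3, and its further read in tumor 2 lies in a gene whose variable exon is also part of the readthrough model Gm42416. Pcdha5 had 0.00563, 0.0101 and 0.00832 FPKM. These values follow from depth and exon length, since tumors 1 and 3 hold fill-in values. Pcdha3 had 0.00549, 0.00989 and 0.00813 FPKM, while Pcdha12 and Pcdha7 both had 0.00549, 0.00988 and 0.00812 FPKM. The C-type genes at the end of the cluster, Pcdhac1 and Pcdhac2, are known to be used by many neurons at once instead of being chosen at random. They had 0.00541, 0.00973 and 0.00800 FPKM and 0.00497, 0.00895 and 0.00736 FPKM, with 1 read each in tumor 2. The summed FPKM of the cluster was 0.0678, 0.131 and 0.1004, with a mean of 0.0998 ± 0.0317 (SD, n = 3), and fell to 0.0437 with fill-in values set to 0.

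The beta cluster covers 259.5 kb and had few reads, all of them in tumors 1 and 2. Together its 22 genes had 48, 22 and 0 reads in tumors 1, 2 and 3. This is 1.56 RPM [1.15 to 2.07] in tumor 1, 1.16 [0.727 to 1.76] in tumor 2 and up to 0.144 in tumor 3. Tumors 1 and 2 overlapped within counting error, and both were higher than tumor 3, at least 10.8-fold and 8.03-fold higher when tumors 1 and 2 are taken at their counts, without their counting error, and tumor 3 at the limit of 3 reads over the cluster. In these bulk tumors, fewer cells of a type and less RNA per cell cannot be told apart. Of the 22 genes, 14 had a read in tumor 1, 9 in tumor 2 and 7 in both. Without a read were 8, 13 and 22 genes in tumors 1, 2 and 3. Among all genes whose reads were recovered, 45.9%, 49.7% and 52.3% had none in these tumors. At least 3 reads were reached by 7 genes in tumor 1 and by 2 in tumor 2.

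Pcdhb22 had the highest mean in the cluster, with 0.0443 FPKM in tumor 1 from 9 reads, 0.0718 in tumor 2 from 9 reads and the fill-in value of 0.00656 in tumor 3. Its interval in tumor 2 [0.0328 to 0.136] lay above that of tumor 3 [0 to 0.0269], while tumor 1 [0.0203 to 0.0841] overlapped both, and the gene shares 455 exon bases with Pcdhb21. Pcdhb17 had 10, 1 and 0 reads in tumors 1, 2 and 3, which is 0.0698 FPKM [0.0335 to 0.128], 0.0113 [0.000286 to 0.0630] and 0.00930 (fill-in). Pcdhb7 had 1, 4 and 0 reads, with 0.00930, 0.0602 and 0.0124 FPKM. Pcdhb17 was thus highest in tumor 1 and Pcdhb7 in tumor 2, but their intervals overlapped between all tumors. For Pcdhb17 this rests on the limit used, as the interval of tumor 1 lay above the limit of 3 reads in tumor 3, 0.0310 FPKM. Pcdhb11 had 6 reads in tumor 1 and 0 in tumors 2 and 3, with 0.0442, 0.0107 and 0.00981 FPKM. Pcdhb10 had 2 reads in tumor 2 and 0 in tumors 1 and 3, with 0.0103, 0.0370 and 0.0152 FPKM.

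**Figure D2:**
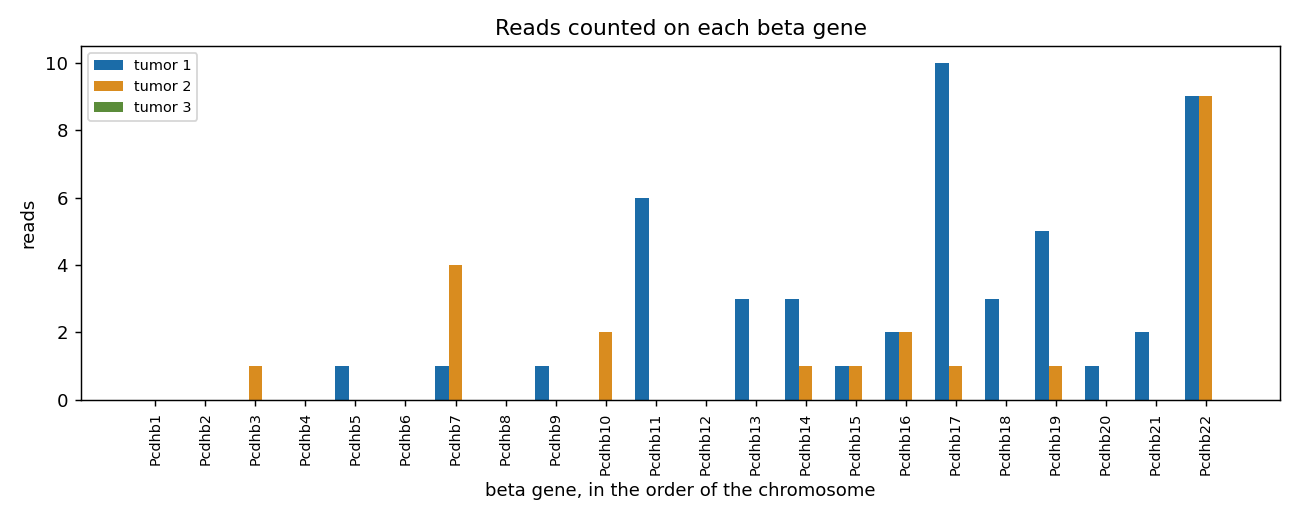
Number of reads on each of the 22 beta genes in tumors 1, 2 and 3, in chromosomal order. Pcdhb17 with 10 reads in tumor 1 and Pcdhb22 with 9 reads in each of tumors 1 and 2 stand highest, and tumor 3 has no bar because it had 0 reads on the cluster.

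In 3 members 1 tumor stood at more than 2 times the FPKM of the others together. These were the beta genes Pcdhb17, Pcdhb7 and Pcdhb11, whose highest tumor had 77.2%, 73.5% and 68.3% of the sum. This is 3 of 56 against 7.90% of all genes. Of these, only Pcdhb17 had as many as 10 reads in its highest tumor, and none remained in the count when 0.1 FPKM was added to each value. With 1 tumor left out the count was 26 without tumor 1, 28 without tumor 2 and 8 without tumor 3, where a share is taken over 2 values only. The beta cluster summed to 0.388, 0.422 and 0.250 FPKM in tumors 1, 2 and 3, with a mean of 0.353 ± 0.0912 (SD, n = 3). All of the sum in tumor 3 is fill-in, and with fill-in values set to 0 the mean was 0.187 FPKM. Beta genes are close paralogs, so reads that map to more than 1 of them may be missing from these counts.

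The gamma cluster was the only one with reads in all 3 tumors. It covers 180.1 kb, and its genes share 2116 bases in constant exons of 59, 89 and 1968 bases. A read there is counted for each of the 21 genes, so the lowest count in the cluster is an upper bound on the shared reads, and the reads of a gene above that count are a lower bound on its reads outside the constant exons. Outside them, Pcdhgb1 and Pcdhga4 share 1038 bases and Pcdhgb4 and Pcdhga8 share 108, so reads there are counted for both genes of a pair and need not be in a gene's own exons. The lowest count in tumors 1, 2 and 3 was 344, 181 and 44. Set against the 2116 shared bases, this is at most 5.29 FPKM [4.75 to 5.88], 4.51 [3.88 to 5.22] and 1.00 [0.727 to 1.34]. Tumors 1 and 2 overlapped and tumor 3 was lower than both. In RPM, the lowest count was 5.29-fold higher [3.85 to 7.41] in tumor 1 than in tumor 3 and 4.50-fold higher [3.22 to 6.41] in tumor 2 than in tumor 3, while tumors 1 and 2 differed 1.17-fold [0.977 to 1.41].

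All gamma genes apart from Pcdhgc3 lay close to this lowest count. Their reads ranged from 344 to 371 in tumor 1, from 181 to 205 in tumor 2 and from 44 to 58 in tumor 3, so that the median gene exceeded the lowest by 6, 1.5 and 3 reads. Their FPKM therefore differ mainly with exon length, and a level printed for such a gene is mostly that of the shared exons. Across the 21 genes the FPKM ranged from 1.53 to 3.14 in tumor 1, from 1.42 to 2.29 in tumor 2 and from 0.284 to 0.572 in tumor 3. The summed FPKM of 47.1, 39.6 and 9.31, with a mean of 32.0 ± 20.0 (SD, n = 3), counts each shared read 21 times. The highest single gene had a mean of 1.99 FPKM.

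**Figure D3:**
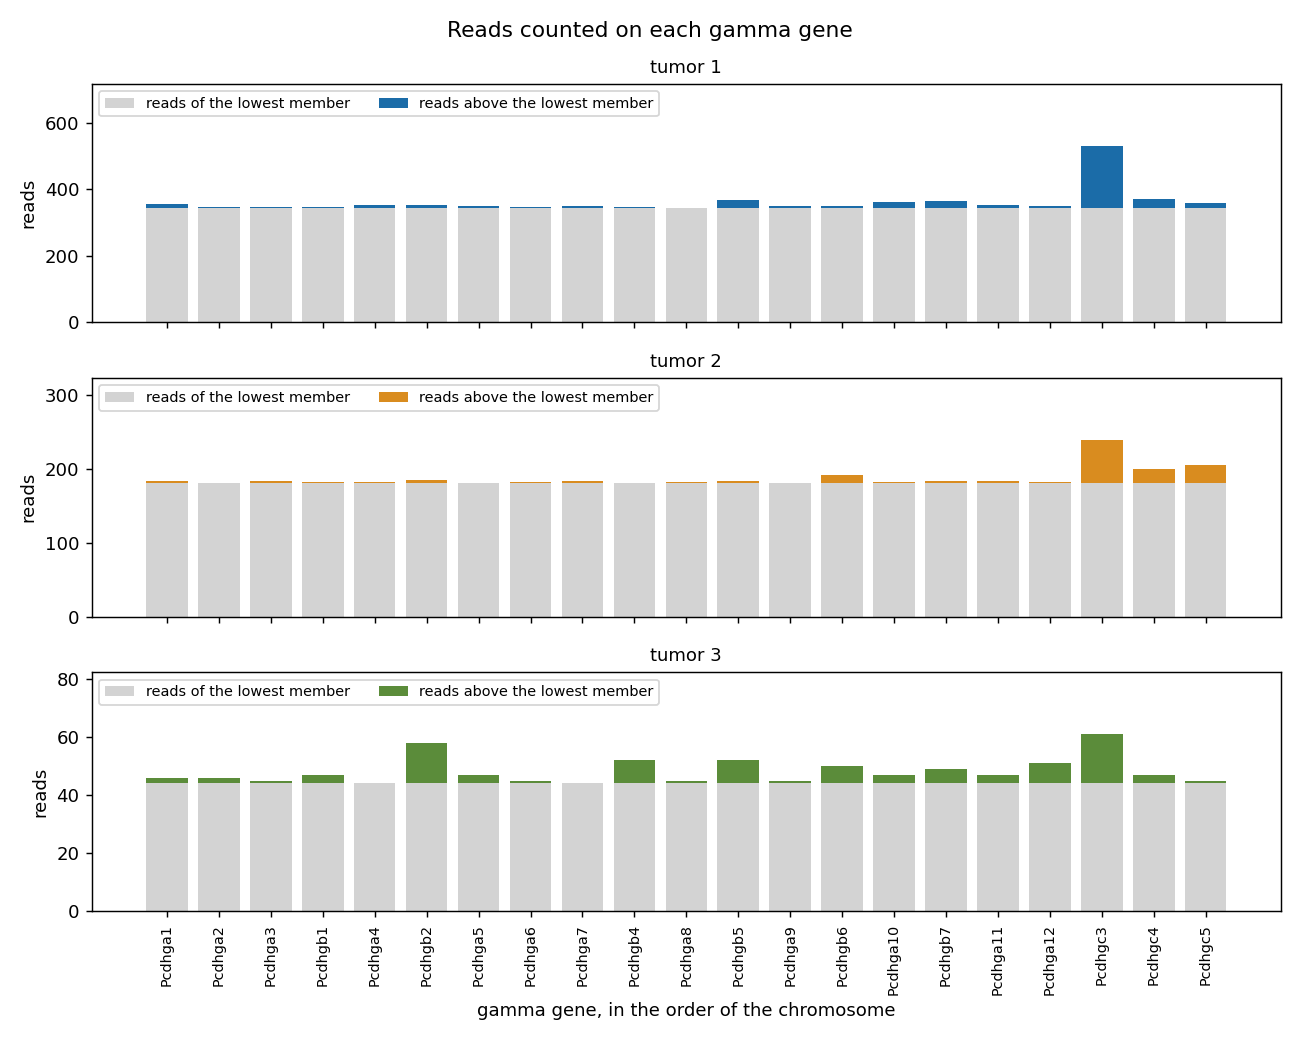
Number of reads on each of the 21 gamma genes in 1 panel per tumor, split into the count of the lowest gene (grey) and the reads above it (color). Grey makes up nearly the whole bar for most genes, and Pcdhgc3 stands out with 531 and 239 reads in tumors 1 and 2, while its 61 reads in tumor 3 are close to the 58 of Pcdhgb2.

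The C-type genes end the gamma cluster and are known for broad, not random, use. With all reads counted for it, Pcdhgc3 had the highest mean FPKM of all members, a rank that depends on reads described below. It had 3.14 [2.88 to 3.42] in tumor 1, 2.29 [2.01 to 2.60] in tumor 2 and 0.534 [0.409 to 0.686] in tumor 3, from 531, 239 and 61 reads. The 3 intervals did not overlap, and Pcdhgc3 was the only gamma gene for which tumors 1 and 2 were apart, against 29.4% of the genes with whole reads. Its reads above the lowest gamma gene numbered 187, 58 and 17, or 35.2% [31.2 to 39.4], 24.3% [19.0 to 30.2] and 27.9% [17.1 to 40.8] of its reads (Clopper-Pearson intervals). Over the 3380 exon bases that no other member has, this is 1.80, 0.905 and 0.242 FPKM, if all of these reads belong to Pcdhgc3. By value, the tumors stood in the same order as for the shared exons, where tumors 1 and 2 overlapped.

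Of those bases, 1559 are also exon of BC037039, a gene on the opposite strand, named after its values were seen. BC037039 had 108, 29 and 10 reads in tumors 1, 2 and 3. The sources used here do not say whether counting used the strand, so reads of the overlap cannot be assigned to one gene or the other. Even with every read of BC037039 subtracted, 79, 29 and 7 reads above the lowest gamma gene remained on Pcdhgc3. Over the 1821 bases outside the overlap these are 1.41, 0.840 and 0.185 FPKM. Over all 5499 exon bases the whole gene then had 2.50 FPKM [2.27 to 2.75] in tumor 1, 2.01 [1.75 to 2.30] in tumor 2 and 0.447 [0.332 to 0.587] in tumor 3. These levels are low estimates, because reads of the overlap were taken off while its bases stayed in the length. Tumors 1 and 2 overlapped in this case, so their separation depends on the reads that cannot be assigned, while tumor 3 was lower than both either way. Against these levels Pcdhgb7, with all its reads, was higher in each tumor, at 2.51, 2.06 and 0.501 FPKM. At this length the highest mean of Pcdhgc3 thus also depends on the reads that cannot be assigned.

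Pcdhgc4 had 2.16, 1.88 and 0.404 FPKM in tumors 1, 2 and 3, with 27, 19 and 3 reads above the lowest gene. Pcdhgc5 had 1.53, 1.42 and 0.284 FPKM, the lowest mean of the cluster, with 14, 24 and 1 reads above the lowest gene. It also has the longest exons, 7627 bases, and part of its own sequence belongs to the readthrough model Gm38182. Summed over the 3 C-type genes, reads above the lowest gene numbered 228, 101 and 21. The 12 A-type genes together had 67, 14 and 24 such reads and the 6 B-type genes 60, 22 and 44, where a read on the bases that a pair of genes shares counts for both. Most of the C-type reads of each tumor were those of Pcdhgc3, and Pcdhgc4 and Pcdhgc5 together had 41, 43 and 4. With the reads of BC037039 taken off, the C-type genes had 120, 72 and 11 such reads, against 127, 36 and 68 for the A-type and B-type genes together. Pcdhgc3 then had only 29 of the 72 in tumor 2, fewer than Pcdhgc4 and Pcdhgc5 together, and still most in tumors 1 and 3. Of the 3 types, the C-type genes had the most such reads in tumors 1 and 2 either way and the B-type genes in tumor 3. Whether the C-type genes had more than the others together in tumor 1 depends on the reads that cannot be assigned. As for the beta genes, reads that map to more than 1 gene may be missing from these counts by type.

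Among B-type genes, Pcdhgb6 had 2.43, 2.16 and 0.514 FPKM in tumors 1, 2 and 3, and Pcdhgb7 had 2.51, 2.06 and 0.501 FPKM. Their reads above the lowest gene were 6, 11 and 6 for Pcdhgb6 and 19, 3 and 5 for Pcdhgb7. Pcdhgb2 had 2.35, 2.00 and 0.572 FPKM, with 9, 4 and 14 reads above the lowest gene. It was the highest gamma gene of tumor 3 by FPKM, and the only one besides Pcdhgc3 to pass the lowest there by at least 10 reads. In tumor 1, 6 of the 20 genes other than Pcdhgc3 passed the lowest by at least 10 reads, and in tumor 2 it was 3 of 20.

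Among A-type genes, Pcdhga10 had 2.48, 2.03 and 0.478 FPKM in tumors 1, 2 and 3, Pcdhga5 had 2.44, 2.05 and 0.485, and Pcdhga11 had 2.42, 2.04 and 0.476. Of the reads that set them apart from the lowest gene, Pcdhga10 had 16, 1 and 3. All its own exon bases, 2613 in number, are antisense to Gm26672, a gene named after its values were seen that had 28, 3 and 9 reads, so these reads cannot be assigned either. Pcdhgb7, Pcdhga11 and Pcdhga12 overlap Gm26672 as well, over 771, 1381 and 422 bases, and the 6, 1 and 7 reads of Pcdhga12 above the lowest gene are open to the same doubt. Pcdhga2 had 2.39, 2.03 and 0.472 FPKM, Pcdhga4 had 2.42, 2.03 and 0.448, and Pcdhga3 had 2.38, 2.04 and 0.459. Pcdhga6 and Pcdhga8 both had 2.37, 2.03 and 0.458 FPKM, and their reads differed by at most 1 in each tumor. Pcdhga7 had 2.17, 1.85 and 0.406 FPKM, and Pcdhga1 had 2.15, 1.80 and 0.413. None of the A-type genes exceeded the lowest gamma gene by more than 16 reads in any tumor. The other 5 genes, Pcdhga9, Pcdhga12, Pcdhgb1, Pcdhgb4 and Pcdhgb5, had between 1.71 and 2.03 FPKM in tumor 1, between 1.44 and 1.71 in tumor 2 and between 0.368 and 0.431 in tumor 3.

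Tumor 3 was the lowest for all 21 gamma genes, and its interval lay below those of tumors 1 and 2 for all 21, against 7.28% of the genes with whole reads. Its FPKM was below 33.3% of both other tumors for 21 of 21 genes, against 6.02% of the 13396 genes above 0.2 FPKM in tumors 1 and 2. These counts hold largely the same reads 21 times over. The gamma median was 2.37, 2.03 and 0.458 FPKM in tumors 1, 2 and 3, and the value of tumor 3 was 0.208 times the mean of the others. The ratio was 0.231 after division by median-of-ratios factors. These comparisons by tumor were chosen after their values were seen.

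Markers of other cell types also differed between the tumors. All 8 fibroblast markers were below 33.3% of both other tumors in tumor 3, with summed levels of 12.6, 44.4 and 0.395 FPKM in tumors 1, 2 and 3. The most abundant of them by mean, Col1a1, had 1.63, 15.5 and 0.315 FPKM, and Pdpn, Lum and Pdgfra had 0 reads in tumor 3. The 8 endothelial markers summed to 14.2, 14.5 and 5.33 FPKM, were all lowest in tumor 3, and had reads in every tumor. Pecam1, which leads this list and is also made by leukocytes, had 12.2, 10.9 and 4.86 FPKM. Without Pecam1 the sums were 2.02, 3.56 and 0.470 FPKM, highest in tumor 2 and lowest in tumor 3. The 6 pancreatic acinar markers summed to 70.5, 386.0 and 0.603 FPKM, with Ctrb1 highest by mean at 33.9, 197.7 and 0.0494 FPKM and at 0 reads in tumor 3. Stromal and acinar transcripts were thus low in the tumor with the lowest gamma level. Single markers differed in their order. From tumor 1 over tumor 2 to tumor 3, a fall was seen in 3 of the 8 endothelial markers (Pecam1, Kdr and Tek). The same held for 2 of the 8 fibroblast markers (Dcn and Lum). The gamma FPKM also fell in this order, but for all gamma genes except Pcdhgc3 tumors 1 and 2 overlapped within counting error.

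The 5 macrophage markers summed to 263.4, 89.6 and 33.2 FPKM in tumors 1, 2 and 3, and Lyz2 led by mean with 215.2, 33.1 and 20.3 FPKM. Without Lyz2 the sums were 48.3, 56.5 and 12.9 FPKM, highest in tumor 2, where Cd68 stood above Lyz2 with 19.6, 51.2 and 9.27 FPKM. Of the 5 markers, 3 (Lyz2, Csf1r and Adgre1) fell from tumor 1 over tumor 2 to tumor 3. Tumor 3 was lowest for 4 of the 5, all but Itgam, and no marker was at 0. The 5 B-cell markers went another way, with sums of 56.2, 13.7 and 103.6 FPKM and the highest level in tumor 3, and Cd79a led with 23.1, 7.31 and 49.0 FPKM. Neuron markers had few reads. The 8 genes of this list summed to 0.562, 0.135 and 0.167 FPKM, which includes fill-in values for the 2, 6 and 5 genes without a read. Tubb3 led by mean with 0.226, 0.0564 and 0.0258 FPKM from 13, 2 and 1 reads. Map2 had 55, 0 and 10 reads, Stmn2 had 17, 1 and 0, Syt1 had 8, 0 and 0, Nefl had 7, 0 and 4, and Snap25 had 1, 0 and 0. These 6 genes had the most reads in tumor 1, while Rbfox3 and Gap43 had 0 reads in every tumor. Such reads are not scaled to depth, which was highest in tumor 1. Nefl had 0.0674 FPKM there against 0.0570 in tumor 3, and the 1 read of Snap25 sets no order. Of the 8 Schwann cell and glia markers, Mbp, which lymphocytes also express, made up most of the sums of 13.9, 21.1 and 20.4 FPKM, with 12.99, 19.9 and 19.5 FPKM. Sox10 had 1 read in each tumor, and S100b and Cdh19 had 0 reads in every tumor. The part of any of these cell types in the gamma reads was not tested.

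**Figure D4:**
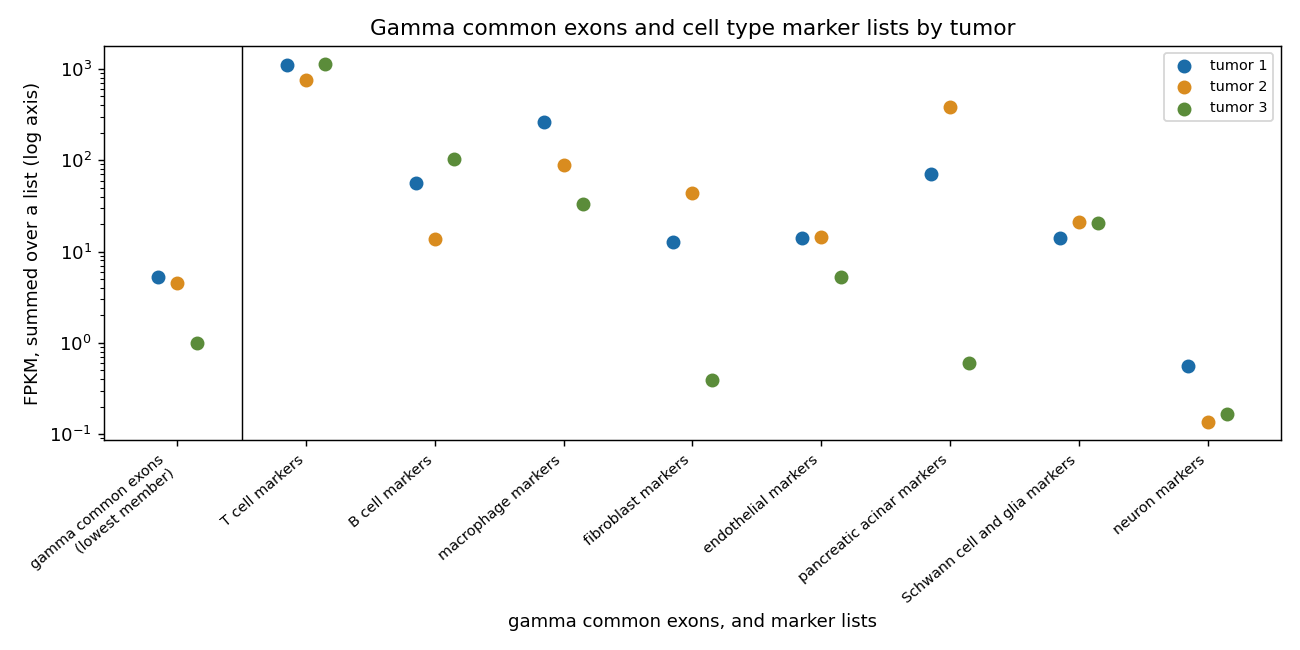
Level of the shared gamma exons, from the lowest gamma gene, and FPKM summed over each of 8 marker lists, in tumors 1, 2 and 3 (log axis). Gamma, macrophage, fibroblast, endothelial and acinar points are lowest in tumor 3, while T-cell and B-cell points are highest there.

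Transcripts of the machinery that loops the clusters were present in every tumor. All 11 looping genes were above 0.2 FPKM in each tumor, with list medians of 18.4, 12.7 and 13.5 FPKM in tumors 1, 2 and 3. Ctcf, which binds protocadherin promoters and enhancers, had 24.8, 14.3 and 18.3 FPKM. Of the cohesin subunits, Rad21 was the most abundant gene of the list by mean with 44.2, 33.6 and 26.5 FPKM. Only 2 of the 11 genes were lowest in tumor 3, Rad21 being one of them. Smc1a had 25.8, 29.8 and 34.3 FPKM and Stag2 had 18.7, 18.5 and 27.9, both highest in tumor 3. Wapl, which releases cohesin from DNA, had 18.4, 8.44 and 13.9 FPKM, and the lowest gene, the cohesin subunit Stag1, had 5.35, 2.42 and 3.74 FPKM.

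Of 8 genes that write, remove or read DNA methylation, 7 were above 0.2 FPKM in every tumor. Dnmt3b, the gene with the targeted allele, stood at 0.975, 1.55 and 1.25 FPKM in tumors 1 to 3. FPKM covers all exons of the gene and does not separate the alleles. Its highest value was in tumor 2 and its lowest in tumor 1, while the gamma genes were lowest in tumor 3. A link between these levels was not tested. The maintenance enzyme Dnmt1 had 31.7, 33.5 and 23.6 FPKM and its partner Uhrf1 had 24.9, 26.2 and 17.5. The demethylating enzyme Tet3 had 11.5, 6.15 and 4.66 FPKM, while Tet1 was the lowest with 0.166, 0.0875 and 0.0543. Of the 8 genes, 6 were lowest in tumor 3, but none of the 7 tested was below 33.3% of both other tumors there.

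All 9 repressors of the clusters were above 0.2 FPKM in every tumor, with medians of 6.40, 6.70 and 4.73 FPKM. Smchd1 had 11.3, 13.8 and 8.86 FPKM in tumors 1, 2 and 3. The histone methyltransferase Setdb1 had 8.68, 5.39 and 4.73 FPKM. Among the most abundant, the corepressor Trim28 had 31.3, 34.1 and 29.4 FPKM and the histone methyltransferase Ehmt2 had 16.6, 35.9 and 18.6 FPKM. Wiz, a partner of Ehmt2, had the lowest mean with 2.88, 2.89 and 2.25 FPKM. By FPKM, tumor 3 was lowest for 5 of the 9 genes, Smchd1 and Setdb1 among them. No intervals were taken for these genes, and a link to the gamma level was not tested. For counts of genes lowest in tumor 3, here and in the other lists, no share over all genes was taken.

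The genes on both sides of the clusters were active in every tumor. Of 15 neighboring genes, 14 were above 0.2 FPKM in each, with medians of 8.38, 7.98 and 6.96 FPKM in tumors 1, 2 and 3. Zmat2, which ends 130.5 kb before Pcdha1, had 27.2, 19.9 and 30.5 FPKM. Diaph1, which lies 1.73 kb past the end of the gamma cluster and encodes an actin-nucleating formin, had 22.3, 28.4 and 22.9 FPKM. The gamma genes thus sat close to a gene that did not share their low level in tumor 3. Ndufa2, a subunit of respiratory complex I, had 34.8, 48.4 and 62.3 FPKM, and the splicing factor Ik had 42.8, 34.7 and 39.0 FPKM. Between the beta and the gamma clusters, Taf7, a subunit of the general transcription factor TFIID, had 3.21, 1.98 and 2.92 FPKM. Slc25a2, a mitochondrial carrier gene beside Taf7, was the lowest, with 10 reads in tumor 1 and 0 in tumors 2 and 3. Taf7 was above all protocadherin genes of the clusters in tumor 3, and Slc25a2 had reads only in tumor 1. The 1 neighbor below 33.3% of both other tumors in tumor 3 was Cd14, a monocyte gene named after its values were seen, with 2.77, 0.805 and 0.214 FPKM.

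**Figure D5:**
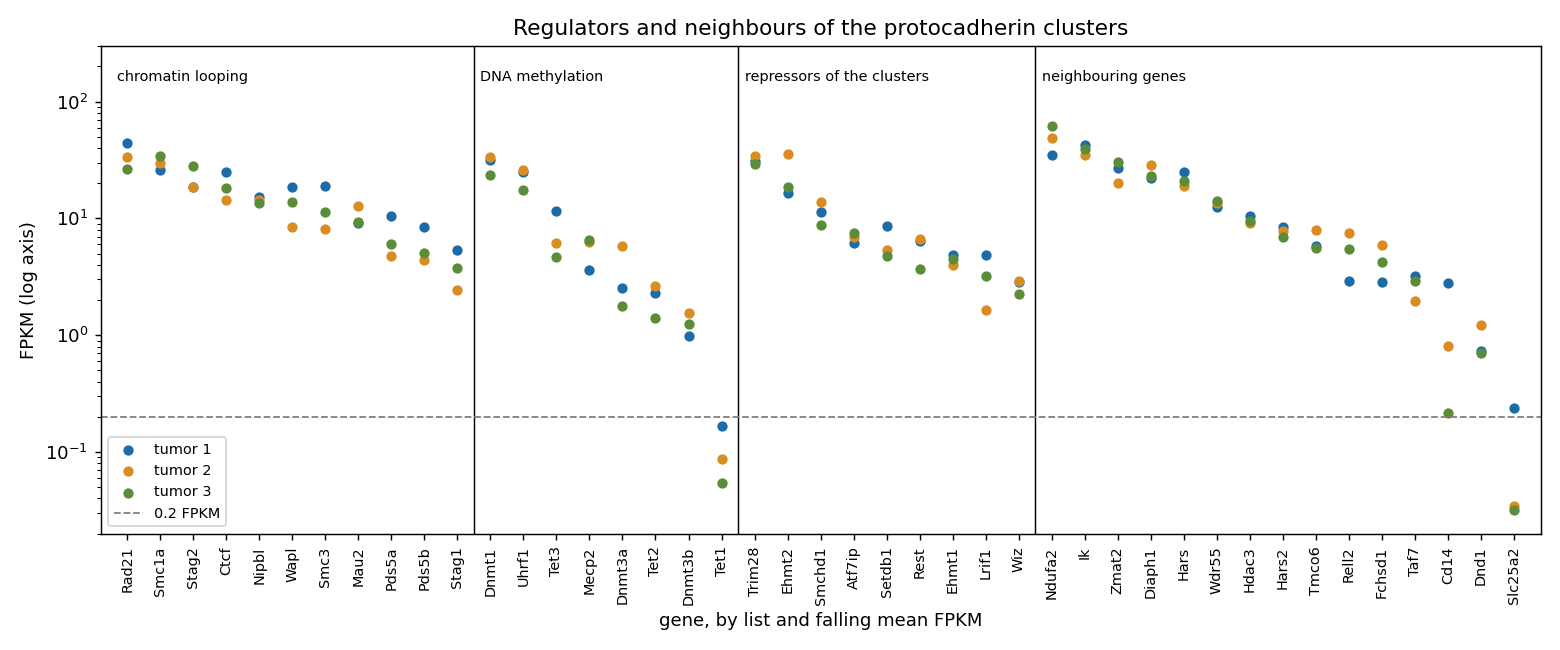
FPKM of looping genes, DNA methylation genes, repressors and neighboring genes (log axis) in tumors 1, 2 and 3, each list in order of falling mean, with a dashed line at 0.2 FPKM. All but Tet1 and Slc25a2 lie above the line in every tumor, and the points of Slc25a2 in tumors 2 and 3 are fill-in values.

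Transcripts of the proteins that clustered protocadherins bind or that cleave them were mostly present. Of 17 such genes, 15 were above 0.2 FPKM in every tumor, with medians of 20.2, 12.04 and 19.4 FPKM in tumors 1, 2 and 3. The kinase Fyn, also a T-cell kinase, had the highest mean with 48.8, 69.4 and 56.4 FPKM. Brk1 had 52.9, 48.7 and 65.2 FPKM and Nckap1l had 45.3, 59.5 and 42.5 FPKM, both subunits of the WAVE complex of actin assembly that leukocytes use. Ptk2b, a focal adhesion kinase that the constant domains inhibit, had 14.1, 29.1 and 18.7 FPKM. The other 2 genes were low in at least 1 tumor. The receptor kinase Ret had 2.02, 6.17 and 0.185 FPKM, the only gene of the list below 33.3% of both other tumors in tumor 3. Wasf1, the WAVE subunit known from brain, was the lowest gene with 0.296, 0.0166 and 0.0337 FPKM.

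Outside the clusters, protocadherins were low as well. None of 12 non-clustered protocadherins was above 0.2 FPKM in every tumor, and only Pcdh1 was in any, with 0.229, 0.222 and 0.153 FPKM in tumors 1, 2 and 3. Its reads numbered 62, 37 and 28. Pcdh7 had 0.0706, 0.144 and 0.0182 FPKM from 23, 29 and 4 reads, and Pcdh12, known from endothelium, had 0.0269, 0.0696 and 0.00716 FPKM from 5, 8 and 0 reads. Pcdh10 had 0 reads in every tumor, as did Pcdh8, Pcdh9, Pcdh11x and Pcdh20. Its mean, the lowest, is thus a fill-in value that follows from depth and exon length. The summed level of the list, 0.449, 0.581 and 0.248 FPKM, was lowest in tumor 3. This sum includes fill-in values for the 5, 5 and 9 genes without a read in tumors 1, 2 and 3. In each tumor it was under the FPKM of the lowest gamma gene, but close to it in tumor 3, where Pcdhgc5 had 0.284 FPKM.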

How the data were processed

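RNA was sequenced in paired-end runs of 150 bp from 3 Dnmt3b+/- PTCL. Per the study's methods, reads were trimmed, aligned to mm10 with STAR, filtered on mapping quality and quantified in SeqMonk. FPKM for each gene and tumor, on a linear scale, are what the authors deposited. The strand setting of the counting is not given in the sources used here.

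Exon lengths came from GENCODE M21. The depth was set so that the commonest product of FPKM and exon length equals 0.9 read, and reads were accepted within 0.02 of a whole number. They were whole for 92.2%, 92.2% and 92.3% of values in tumors 1, 2 and 3, and for 31460 of 34245 genes in all tumors. For Pcdha11 the annotated length gave no whole reads, so the length was taken from its fill-in value. FPKM are not counts, and no count model was fitted. Lists, markers and members were chosen with earlier results of these data known.

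Genes were named by rule. These are the 5 highest means of each cluster, the 15 highest of the members above 0.2 FPKM in every tumor, the C-type genes, members with 1 tumor at more than 2 times the others together and at least 10 reads there, the 3 highest genes and the lowest gene of each list, some preset regulators and neighbors, and non-clustered protocadherins above 0.2 FPKM in any tumor. Other genes, among them Pcdh7 and Pcdh12, were chosen after their values were seen. Alternatives were other thresholds, a pseudocount, 2 scalings, fill-in values at 0, each tumor left out and Pcdhgc3 without the reads of BC037039. The steps were tested on simulated data. Calculations were run in Python 3.11.15 with SciPy 1.17.1, NumPy 2.4.6 and pandas 2.3.3, and plots were drawn with matplotlib 3.10.9.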

Additional observations from a re-analysis of the deposited data

How the results depend on the processing

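Of 62 alternative values, 44 stayed within 1 SD and 18 moved further. This is the SD of the tumors, or for the gamma ratio the SD of tumor 3 over each other tumor. For counts 1.5 times was used. The 44 and 18 do not measure robustness. Some alternatives could not change a value, such as leaving out pseudogenes, and rescaling to a sum of 1000000 changes the unit of the FPKM. The count of members above the threshold in every tumor was 21 at 0.1 and 0.2 FPKM and 0 at 1 FPKM. The count of members with 1 leading tumor was 3 as reported, 11 with a share over 50%, 0 among members with a mean of at least 0.2 FPKM, 0 with a pseudocount of 0.1 FPKM, and 8 to 28 with 1 tumor left out, where 2 values make a large share easier to reach. The median of 0.0154 FPKM became 0.186 as a back-transformed mean of log2 values with a pseudocount of 0.1. Rescaling each tumor to sum to 1000000 multiplied all values by 5.30, 4.83 and 4.47 in tumors 1, 2 and 3, which gave a median of 0.0742, sums of 0.481, 1.74 and 160.9 for the alpha, beta and gamma clusters, and 0.183 for the gamma ratio of tumor 3. With fill-in values set to 0 the alpha and beta sums were 0.0437 and 0.187 FPKM. The highest single gene had 0.0103 FPKM in the alpha and 1.99 in the gamma cluster.

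With 1 tumor left out, the count of members with a read in every tumor was 21 to 28, the median was 0.0138 to 0.0158 FPKM, and the alpha, beta and gamma sums were 0.0841 to 0.116, 0.319 to 0.405 and 24.5 to 43.4 FPKM. The gamma ratio of tumor 3, whose alternatives were chosen after seeing the data, was 0.193 to 0.226, and 0.204 from the lowest gamma count. The count of gamma genes with tumors 1 and 2 apart was 1, and 0 with the reads of BC037039 taken off Pcdhgc3, also chosen after seeing the data. No member is a pseudogene, so leaving pseudogenes out changed nothing. Depth limits the alpha and beta genes, which had at most 10 reads. No paired analysis was possible because only the RNA-seq group was analysed, and although replicate numbers 1 and 2 also occur in another assay not analysed here, the labels do not say whether these are the same tumors.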

Other observations

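Annotated models that read through the clusters or run antisense to them also had reads, and they were chosen after their values were seen. Gm38182 had 94, 45 and 9 reads in tumors 1, 2 and 3 over 1530 exon bases, 628 of them in the constant exons common to all gamma genes, and all 1530 are exon of Pcdhgc5. Gm42416, which joins sequence of Pcdha4 to gamma exons, had 60, 31 and 6 reads and shares 446 bases with the constant gamma exons and 2410 with Pcdha4. Since Pcdha4 itself had 0, 2 and 0 reads, at most 0, 2 and 0 of these reads can lie on the bases it has in common with Pcdha4. Gm37013 and Gm37388 had the same 12, 7 and 2 reads, and share 91 bases with each other, which lie in the constant gamma exons. All 4 models were lowest in tumor 3, but reads on these bases are counted for the gamma genes too, so this adds no separate support for the low gamma level there.

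The noncoding gene 3222401L13Rik, in contrast, had 14, 0 and 15 reads in tumors 1, 2 and 3, or 0.0724, 0.00754 and 0.115 FPKM, with no read in tumor 2. Of the 12 models listed, 4 were above 0.2 FPKM in every tumor and 7 were not in any.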
